A study of Mus musculus with 12 samples.

Results

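FoxP3 binding was examined at the genes Tcf7 and Lef1, which encode the transcription factors TCF-1 and LEF-1. The members are the peaks whose summit lay between 52050000 and 52150000 on chromosome 11 (Tcf7) or between 130750000 and 131000000 on chromosome 3 (Lef1) in mm9, the mouse genome build of the peak lists. In all, 112 of 53228 peaks met this rule. Overlapping peaks of different libraries were joined into regions, which gave 12 regions for Tcf7 and 25 for Lef1, or 37 of 24765 regions on the standard chromosomes. Regions are numbered by position within each window. The first summits outside lay 4.51 kb before and 1.57 kb after the Tcf7 window (folds over control of 12.6 and 17.0) and 20.5 kb before and 6.07 kb after the Lef1 window (14.6 and 9.19). The summits nearest to the edges inside were at 52079221 and 52132234 for Tcf7, and at 130760264 and 130917939 for Lef1.

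The libraries come from regulatory T (Treg) cells of C57BL/6J mice of 2 lines, FoxP3WT:hCD2 (called WT) and FoxP3A384T:hCD2 (called A384T). The first has the wild-type protein and the second the amino acid change A384T, and hCD2 is a human CD2 reporter that both lines share. CD4+ hCD2+ cells from lymph nodes and spleen were purified on magnets, and chromatin bound by FoxP3 was pulled down with a polyclonal rabbit antibody. Each genotype has 3 ChIP libraries with a peak list each, and the lists are compared here to ask whether FoxP3 peaks at these genes differ between the proteins. A further 6 input libraries have no peak list and entered no comparison here. Values are given for replicates 1, 2 and 3 in that order within each genotype. Nothing in the labels gives the age of the mice or says that replicates are separate animals, so p-values here measure the spread among libraries, which may be technical. Peak lists hold no expression, and the labelled cell type was not checked against markers. ChIP on a cell population cannot tell binding in fewer cells from weaker binding per cell.

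FoxP3 is the forkhead transcription factor that defines Treg cells, and A384 lies in its forkhead domain, the part that contacts DNA. TCF-1 and LEF-1 are related proteins that bind DNA through an HMG box and pair with beta-catenin or with Groucho/TLE corepressors at Wnt target genes. In T cells they act in commitment and maturation in the thymus, and later in naive and memory-like states.

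No genome of the build of the peaks was at hand, so the bases under the peaks are not printed. What RefSeq gives for the 2 genes is their promoter sequence in another build, GRCm38.p6, which was not joined to the peak positions. It was searched for the forkhead core TGTTTAC and its shorter form TGTTTA, on both strands; each match to the longer form is also one to the shorter. The full core was in 1 of 2 Tcf7 promoter windows and in 0 of 4 Lef1 windows, against 3.65% of 32851 promoter windows of the same length. The shorter form was in 1 of 2 and 1 of 4, against 13.4%. Both matches are shown because they are the forkhead letters in the promoters of these genes; capitals mark the match, and both stretches read 5′ to 3′ on the gene's strand. The Tcf7 stretch is chr11:52282576-52282605 on the minus strand; the printed strand holds the core as its reverse complement, GTAAACA. The Lef1 stretch is chr3:131156296-131156325 on the plus strand.
Tcf7: cctttataggaGTAAACAgacccccgccat
Lef1: atcaagaaaaggTGTTTAtctctattgaag
These letters describe the promoters only, and no peak was placed on them. In GRCm38.p6 the neighbouring protein-coding genes are Skp1 and Vdac1 for Tcf7 and Rpl34 and Hadh for Lef1. Without an mm9 annotation no peak was assigned to an exon, an intron or a neighbouring gene.

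The lists differed widely in length. The 6 lists held 1746 to 20723 peaks. The long lists were the replicate 1 libraries (51 bp tags, with 20723 peaks in WT and 18147 in A384T), while the others had 49 bp tags and 1746 to 6657 peaks. Unique ChIP tags did not follow this order. WT replicate 1 had the fewest (17520951) and the longest list, and WT replicate 2 had the most (25386770) and the shortest list. All lists stop at the authors' q-value cutoff of 1e-10, so a missing peak means that nothing passed it. Fold enrichment and -log10 q are the authors' values for a peak within its own list. Where folds of both genotypes stand side by side below, whether they overlap is a description of the lists, since folds have no scale shared between libraries.

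Both loci carried FoxP3 peaks in every library of both genotypes. The Tcf7 window held 12, 6 and 6 peaks in WT and 12, 8 and 3 in A384T. The genotypes overlapped and the means were 8.0 ± 3.46 and 7.67 ± 4.51 (SD, n = 3 each), a difference of -0.333 peaks (two-sided exact permutation test, p = 1.0; 3 against 3 cannot go below 0.1). At Lef1 the lists held 22, 5 and 8 peaks in WT and 15, 12 and 3 in A384T. In each genotype the highest Lef1 count was in replicate 1 and the lowest in the shortest list of that genotype. The Lef1 means were 11.7 ± 9.07 and 10 ± 6.24 (SD, n = 3 each), with a difference of -1.67 (two-sided exact permutation test, p = 0.9).

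The sign of these differences rested on single libraries. Without WT replicate 1 the differences became 1.67 for Tcf7 and 3.5 for Lef1, and without A384T replicate 3 they became 2.0 and 1.83. Among the 49 bp libraries alone they were -0.5 and 1.0. When each list was trimmed to 1746 peaks, the length of the shortest, the Tcf7 window held 4, 6 and 4 in WT and 5, 5 and 3 in A384T, and the Lef1 window held 5, 5 and 3 in WT and 4, 3 and 3 in A384T. At equal length the Lef1 difference was -1.0 (two-sided exact permutation test, p = 0.4).

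**Figure D1:**
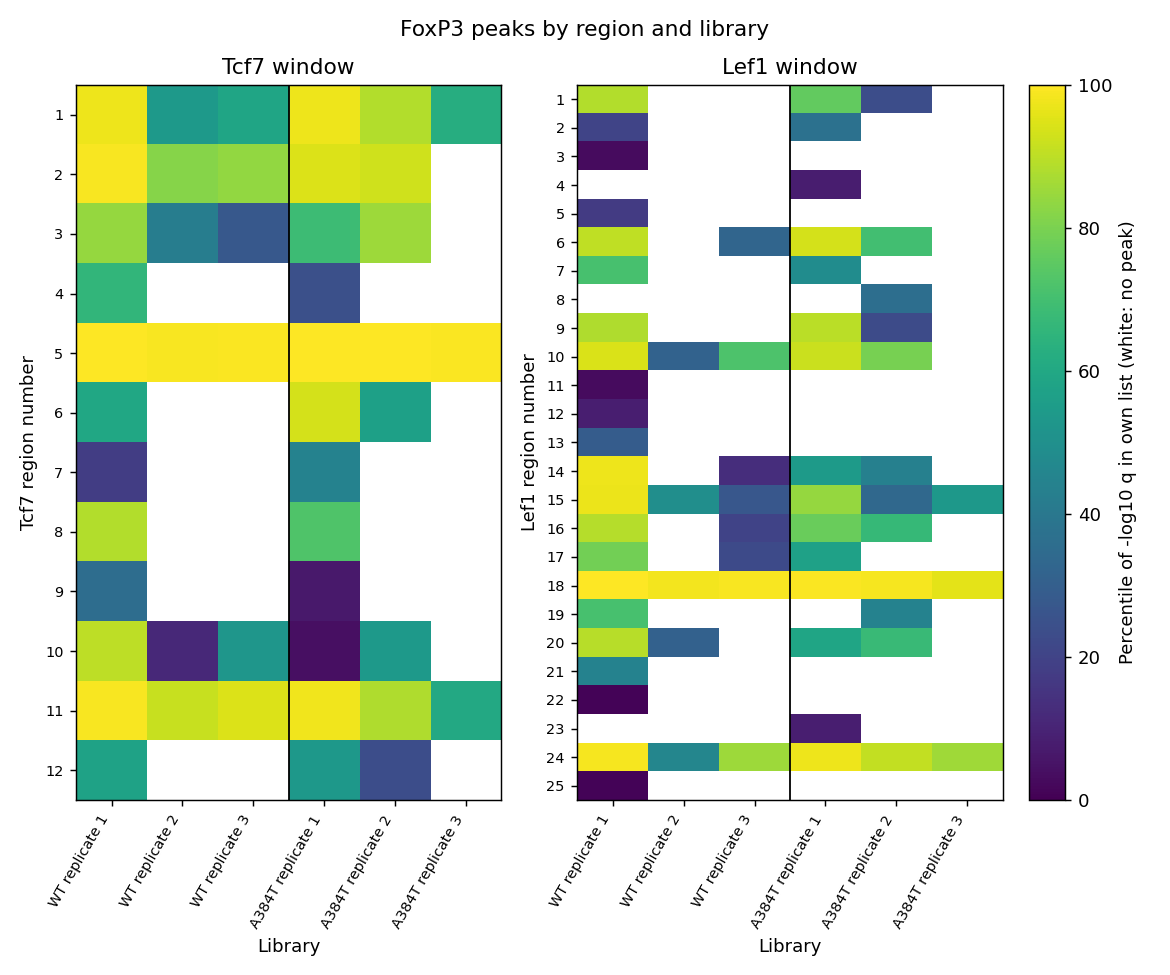
Each row is a region, numbered by position, and each column a library. Color gives the percentile of the peak's -log10 q within its own list (100 is the strongest) and white means no peak. Tcf7 regions 1, 5 and 11 and Lef1 regions 15, 18 and 24 have a peak in all 6 libraries.

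The 37 regions were found in 34, 11 and 14 cases in the WT lists and in 27, 20 and 6 in the A384T lists. Of all 24765 regions, the WT lists held 82.5, 6.72 and 14.9% and the A384T lists 71.8, 25.6 and 8.04%. All 12 Tcf7 regions had a peak in both genotypes, where 56.0% of all regions did; at Lef1 it was 14 of 25 (56%). A peak in all 6 libraries was found at 3 Tcf7 regions and 3 Lef1 regions, 6 of 37 (16.2%) against 3.88% of all regions. In at least 5 libraries there were 10 of 37 (27.0%) against 7.89%. The shared count at Tcf7 was 6 of 12 regions without WT replicate 1, 6 of 8 in the 49 bp libraries and 5 of 7 at equal list length. At Lef1 these values were 9 of 17, 8 of 13 and 4 of 7. The share of all regions was not counted under these settings, and the 56.0% does not apply to them.

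No member was repeated within 1 genotype (2 or more libraries) while absent from all lists of the other genotype; 1.64% of all regions were. The 11 Lef1 regions found in 1 genotype were each in a single library. WT replicate 1 had 8 of these (WT lists alone held 26.8% of all regions), A384T replicate 1 had 2 and A384T replicate 2 had 1 (A384T lists alone held 17.2%). Their folds ran from 5.98 to 13.6 and their percentiles within their lists from 0.900 to 44.5, so all lay below the median of their list. Single-library regions made up 44% of the Lef1 regions and 42.4% of all regions, and the Tcf7 window had 0. Another 4 Tcf7 regions (4, 7, 8 and 9) and 2 Lef1 regions (2 and 7) were in the pair of replicate 1 lists and nowhere else, with folds of 7.38 to 15.1 at Tcf7 and 8.12 to 16.6 at Lef1. Of the 37 members, 16 (43.2%) rested on replicate 1 lists alone, against 71.1% of all regions.

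Peaks were dense in both windows. The 12 Tcf7 regions spread over 53.3 kb, and 218 of 26371 windows of 100 kb along the genome (0.827%) held as many or more. The 25 Lef1 regions spread over 158 kb, and 79 of 10556 windows of 250 kb (0.748%) held at least that number. For regions present in all 6 libraries, windows with 3 or more made up 0.19% at 100 kb and 0.682% at 250 kb. These shares are descriptions, since the windows were laid around the genes and the others were cut at fixed steps.

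**Figure D2:**
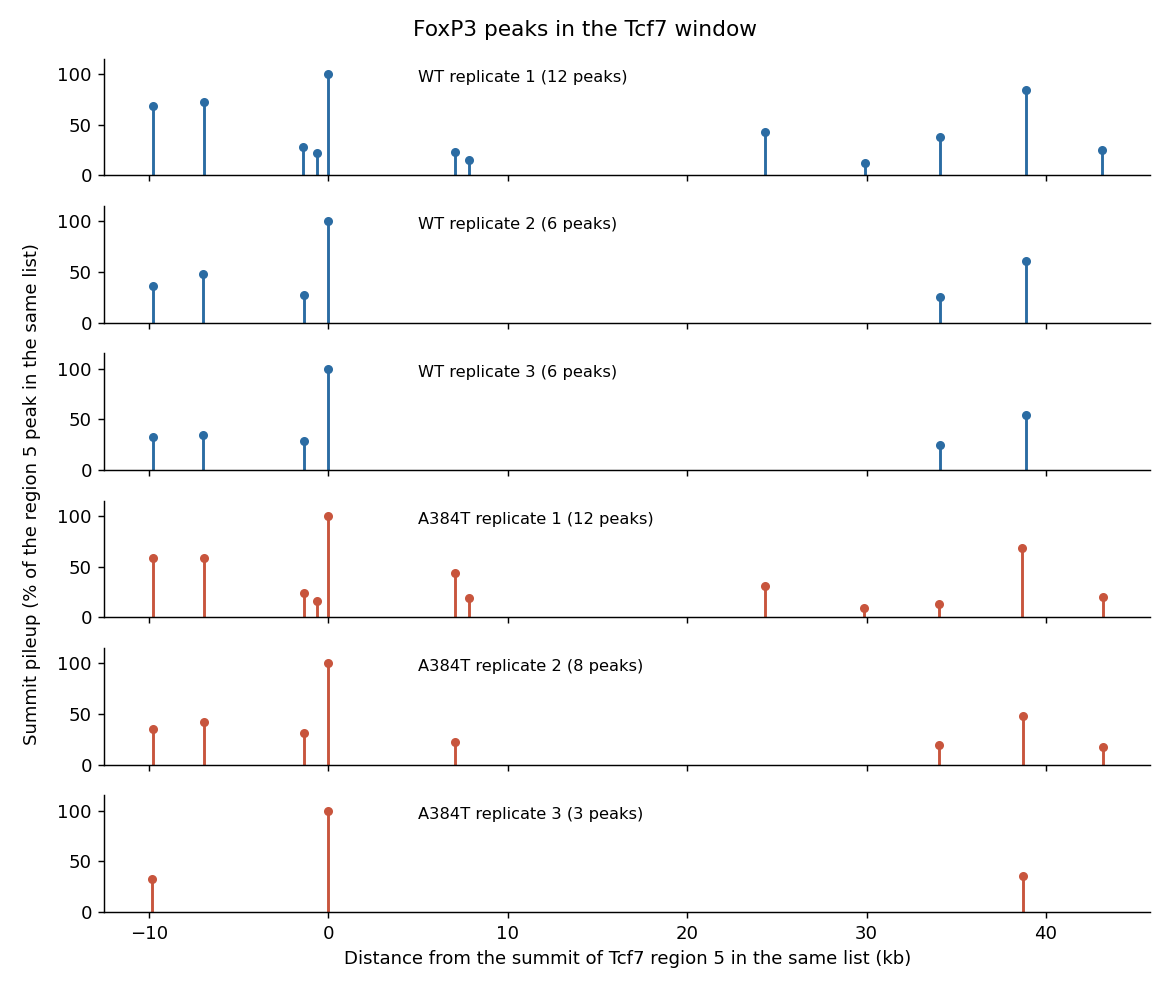
Each panel is a library; lines stand at the peak summits of the Tcf7 window, by distance in kb from the summit of Tcf7 region 5, with height as summit pileup in percent of the region 5 peak of the same list. Region 5 is the tallest in every panel, and the replicate 1 libraries have 12 peaks each.

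Tcf7 region 5, on chromosome 11 from 52088840 to 52089322, was the leading peak of its window in all 6 libraries. Its fold over control was 57.0, 29.4 and 37.4 in WT and 62.9, 34.7 and 31.9 in A384T. By -log10 q it stood at positions 16, 15 and 26 of the WT lists and at 8, 17 and 14 of the A384T lists, so both genotypes placed it among their strongest peaks. Its summits fell between 52089052 and 52089062, a range of 10 bp, where the regions of all 6 libraries had a median range of 53.0 bp. Tcf7 region 1 (52079088 to 52079631), the first of the cluster, had folds of 24.0, 10.6 and 10.01 in WT and 31.1, 20.99 and 11.03 in A384T. The genotypes overlapped there.

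Tcf7 region 11 (52127441 to 52128255) was the widest of its window at 815 bp. Its folds were 29.4, 16.5 and 25.1 in WT and 27.6, 12.7 and 9.87 in A384T, and its list positions were 189, 147 and 208 in WT and 378, 797 and 809 in A384T. Every WT position was ahead of every A384T position, but lists of different length make positions no measure of change.

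Tcf7 regions 2, 3 and 10 and Lef1 region 10 were in 5 libraries and missing in the same one, A384T replicate 3. This pattern was seen in 4 of 37 members and 2.15% of all regions, and in 53.6% of the 993 regions found in exactly 5 libraries. WT replicate 2 has a shorter list (1746 against 2050 peaks) and held all 4, and the part of list length in these absences was not tested. Tcf7 region 2 (52081855 to 52082336) had folds of 41.2, 13.8 and 19.3 in WT and 19.1 and 22.3 in A384T replicates 1 and 2. For Tcf7 region 3 (52087518 to 52087866) the folds were 22.3, 11.4 and 7.30 in WT and 15.7 and 20.7 in A384T. Both regions overlapped between genotypes, also in their order among the 1494 regions shared by those 5 libraries, where 14.6% of regions were called higher in WT and 15.5% higher in A384T without overlap.

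Tcf7 region 10 (52122923 to 52123387) had folds of 21.6, 7.95 and 12.4 in WT and 6.27 and 13.2 in the first pair of A384T replicates. It was the last of the 12 peaks of the window for A384T replicate 1 but the fifth for WT replicate 1. Its percentile among the 1494 regions of those 5 libraries was 20.2, 8.87 and 21.9 in WT and 0.402 and 13.1 in A384T, which overlap (difference -10.3; two-sided exact permutation test, p = 0.3; 3 against 2 cannot go below 0.1).

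Tcf7 regions 6 and 12 were in both replicate 1 lists and in A384T replicate 2, and in no 49 bp WT library. This pattern, also seen at Lef1 regions 1 and 9, was not counted over all regions. Region 6 (52095957 to 52096270) had a fold of 10.1 in WT replicate 1, and 28.9 and 11.8 in A384T replicates 1 and 2. Within its window it was peak 9 of 12 in WT replicate 1, compared with peak 5 of 12 in A384T replicate 1. Region 12 (52132017 to 52132339) had 8.79 in WT replicate 1, and 12.6 and 9.24 in A384T. A384T replicate 2 has a longer list than WT replicates 2 and 3 (6657 peaks against 1746 and 3905), and its part in these absences was not tested.

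**Figure D3:**
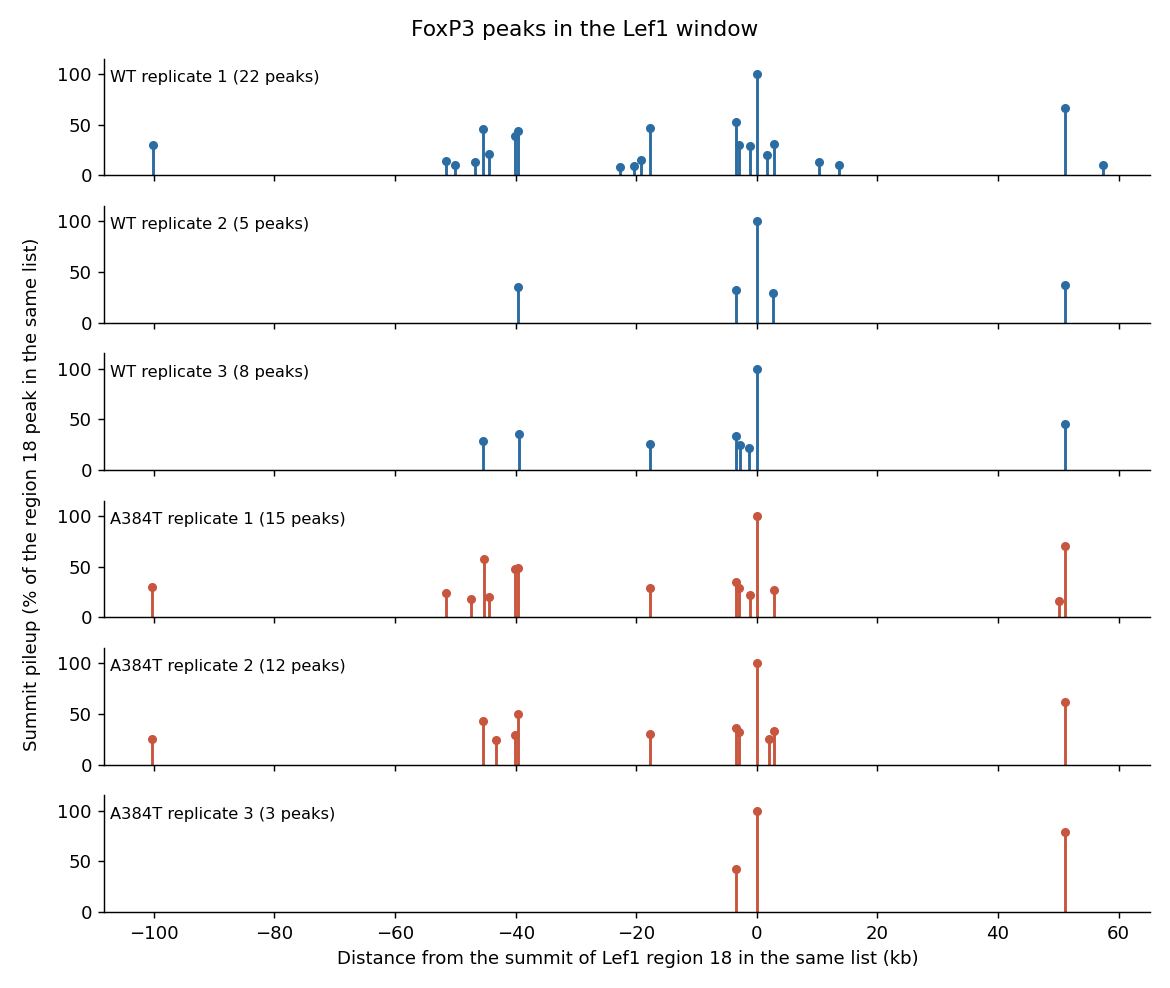
Each panel is a library; lines stand at the peak summits of the Lef1 window, by distance in kb from the summit of Lef1 region 18, with height as summit pileup in percent of the region 18 peak of the same list. Peaks gather close to region 18 and in a second group to the left, and region 24 stands 51.0 to 51.2 kb to the right in all 6 libraries.

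The Lef1 window had the same kind of leading peak. Lef1 region 18 (chromosome 3, 130860241 to 130860833) was first of its window in every library, with folds of 38.9, 27.5 and 34.2 in WT and 45.1, 34.6 and 25.3 in A384T. Its list positions were 43, 31 and 37 in WT and 80, 94 and 87 in A384T. Its position number was lower in every WT list, but the lists differ in length and its percentiles within them overlapped between genotypes. Tcf7 region 5 stood ahead of it in all 6 lists.

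Around Lef1 region 18 lay a dense group, regions 15 to 20, from 130856746 to 130863527. Region 15 (130856746 to 130857335) was in all 6 libraries, with folds of 35.5, 12.1 and 6.72 in WT and 23.5, 7.31 and 13.0 in A384T, which overlap. Region 16 (130857458 to 130857855) was in 4 libraries, at 27.3 (replicate 1) and 8.48 (replicate 3) in WT, against 21.1 (replicate 1) and 16.2 (replicate 2) in A384T. Region 20 (130862845 to 130863527) was also in 4, at 27.1 and 10.5 in replicates 1 and 2 of WT, against 12.3 and 15.7 in those of A384T. Regions 17 and 19 were in 3 and 2 libraries.

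A second stretch lay before it. Lef1 region 10 (130820734 to 130821217) had folds of 29.7, 8.64 and 13.9 in WT and 26.2 and 14.02 in A384T replicates 1 and 2. Its percentiles among the 1494 regions of those 5 libraries were 42.8, 26.8 and 42.3 in WT and 59.3 and 41.1 in A384T, which overlap (difference 12.9; two-sided exact permutation test, p = 0.5). Its neighbour region 9 ended 18 bp before it and was in 3 libraries, at a fold of 17.1 in WT replicate 1 and of 21.6 and 8.15 in replicates 1 and 2 of A384T. The first region of the window, region 1 (130760055 to 130760518), was found in the same 3 libraries, at 27.8 in WT and at 19.8 and 9.01 in A384T. Region 6 (130814706 to 130815739), the widest of the window at 1034 bp, was in 4 libraries with folds from 8.38 to 22.4.

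Lef1 region 14 (130842426 to 130843051) was in 4 libraries and stood near the top of the list in WT replicate 1 alone. Its fold was 49.9 in WT replicate 1 and 7.24 in WT replicate 3, against 9.93 and 10.7 in A384T replicates 1 and 2. Its position was 500 in the list of WT replicate 1 but 8285 in that of A384T replicate 1, which is of similar length. WT replicate 2 had no peak there, so the high value was seen in 1 library.

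Lef1 region 24 (130911340 to 130911906) was the second peak of the window in 5 of 6 libraries and the third in WT replicate 2. Its folds were 38.3, 9.82 and 16.6 in WT and 31.6, 19.7 and 14.5 in A384T, which overlap. Its nearest neighbours, regions 23 and 25, were each in a single library.

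Order was compared between genotypes over the 962 regions of all 6 libraries, where -log10 q was turned into a percentile within each library and a region was called when WT and A384T percentiles did not overlap. Two-sided exact permutation tests were adjusted over all 962 regions, and no adjusted p can fall below 0.1 with 3 against 3. Among all 962, 13.3% were called higher in WT and 11.5% higher in A384T. Of the 6 members, Tcf7 region 11 and Lef1 region 18 were called higher in WT and the other 4 overlapped. The titles give replicate numbers but do not say that same-numbered libraries are paired. Taken as pairs by number, Tcf7 region 11 and Lef1 region 18 were lower in A384T in 3 of 3 pairs. Tcf7 region 1 was higher in A384T in 3 of 3. With the numbers as a block each of these 3 regions had an exact two-sided permutation p of 0.25, the lowest that 3 pairs allow. How many of all 962 regions kept 1 sign in 3 of 3 pairs was not counted, so these pair counts are descriptions.

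Tcf7 region 11 was at percentiles 81.4, 85.3 and 79.99 in WT and 77.4, 42.3 and 46.9 in A384T. The means were 82.2 ± 2.78 and 55.5 ± 19.1 (SD, n = 3 each), a difference of -26.7 points (two-sided exact permutation test, p = 0.1, which is the floor; adjusted p = 0.403). The ranges did not overlap, and A384T replicate 1 was close to WT. With any 1 library left out the difference ranged from -37.7 to -15.8 points, and in the 49 bp libraries it was -38.1. WT stayed higher without overlap in these settings, but groups already apart can hardly come to overlap when libraries are removed. Ranked by fold the difference was -33.5 and by pileup -13.5, and by both the genotypes overlapped. By percentile of -log10 q within each full list the difference was -13.0 points. On that scale WT was at 99.1, 91.6 and 94.7 and A384T at 97.9, 88.0 and 60.5, which overlap. By fold 8.32% of the 962 regions were called higher in WT, and by pileup 14.0% were called higher in WT and 12.4% higher in A384T.

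Lef1 region 18 was at 95.6, 96.9 and 96.4 in WT and at 93.6, 91.3 and 92.6 in A384T, a difference of -3.79 points near the top of the scale (two-sided exact permutation test, p = 0.1; adjusted p = 0.403). With any 1 library left out the difference ranged from -4.34 to -2.46, without overlap, which leaving out a library can hardly change. Ranked by pileup the groups also did not overlap (-6.01). Ranked by fold the difference turned to 4.42 points with overlap. By percentile of -log10 q within each full list the difference was -1.06 points. On that scale WT was at 99.8, 98.3 and 99.1 and A384T at 99.6, 98.6 and 95.8, which overlap.

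Tcf7 region 1 was at 58.2, 35.9 and 15.8 in WT and at 72.1, 43.8 and 48.8 in A384T. For the remaining members the differences were 18.3 points for Tcf7 region 1, 0.762 for Tcf7 region 5, -8.92 for Lef1 region 15 and 16.4 for Lef1 region 24 (two-sided exact permutation tests, p from 0.3 to 0.7; adjusted p from 0.679 to 0.895). Tcf7 region 1 was called higher in A384T when ranked by fold (difference 28.2), where 7.59% of all regions were called in that direction, and also without WT replicate 1 (29.0) and in the 49 bp libraries (20.5). Tcf7 region 5 was called higher in A384T without A384T replicate 2 (0.983). Lef1 region 15 was called higher in WT by pileup (-13.7) and changed sign without WT replicate 1 (2.70) or A384T replicate 2 (0.328). The difference of Lef1 region 24 shrank to 0.991 without WT replicate 2. It was 27.6, with no overlap, without WT replicate 1 and 24.6, also with no overlap, in the 49 bp libraries. Groups of fewer libraries fail to overlap more easily. The share of all regions called in these subsets was not counted, and the 11.5% does not apply to them.

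**Figure D4:**
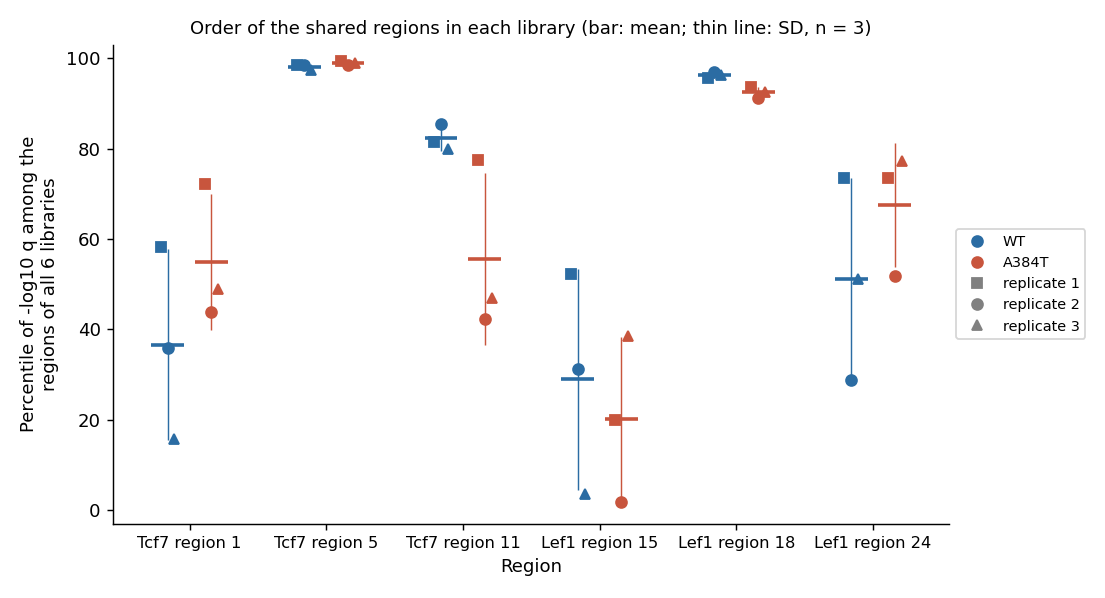
Percentile of -log10 q among the regions of all 6 libraries, for the 6 members in that set, by genotype (blue WT, red A384T) and replicate (marker shape), with mean and SD (n = 3). Tcf7 region 5 and Lef1 region 18 sit at 91.3 or higher in all libraries, and Tcf7 region 11 is at 79.99 to 85.3 in WT and at 42.3 to 77.4 in A384T.

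Summit positions of the 2 genotypes did not overlap at Tcf7 region 11. The highest pileup was at 52127933, 52127931 and 52127957 in WT and at 52127747, 52127807 and 52127770 in A384T. All 3 A384T summits lay to the left, with 124 bp between the nearest summits of the 2 genotypes. The mean shift was -166 bp (SD 14.5 in WT and 30.3 in A384T, n = 3 each; two-sided exact permutation test, p = 0.1, which is the floor; adjusted p = 0.757 over 962 regions). Summits did not overlap between genotypes in 13.2% of the 962 regions, while a distance of at least 100 bp between the nearest summits was seen in 5 of them (0.52%). The range over all 6 summits was 210 bp, and 7.17% of the 962 regions had a range at least as wide. Each library had a single peak there, and among the 839 regions of that kind 0.358% had at least 100 bp between the nearest summits. These shares were not matched for peak width. The peaks of Tcf7 region 11 were 815, 461 and 532 bp wide in WT and 722, 606 and 197 bp in A384T. Median widths of the lists were 180 to 264 bp.

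The peaks themselves mostly covered both positions. The extents were 52127441 to 52128255, 52127643 to 52128103 and 52127607 to 52128138 in WT, and 52127489 to 52128210, 52127543 to 52128148 and 52127650 to 52127846 in A384T. The last of these, from the second shortest list, ended before the WT summits began. The shift ranged from -182 to -152 bp with any 1 library left out and was -156 bp in the 49 bp libraries. This comparison and the limit of 100 bp were chosen after the summits had been seen.

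At Lef1 region 18 the summits were at 130860538, 130860516 and 130860524 in WT and 130860577, 130860569 and 130860558 in A384T. The groups were 20 bp apart, with a mean shift of 42.0 bp in the other direction of the coordinates (two-sided exact permutation test, p = 0.1; adjusted p = 0.757). This region too is among the 13.2% above. At the other 4 members the summits of the genotypes overlapped, with mean shifts of -32.7 to 0.333 bp. At Lef1 region 24 they no longer overlapped without WT replicate 1 (-45.7 bp) or without A384T replicate 3 (-38.0 bp), or in the 49 bp libraries (-38.5 bp). The share of all regions without overlap was not counted in these subsets, and the 13.2% does not apply to them.

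**Figure D5:**
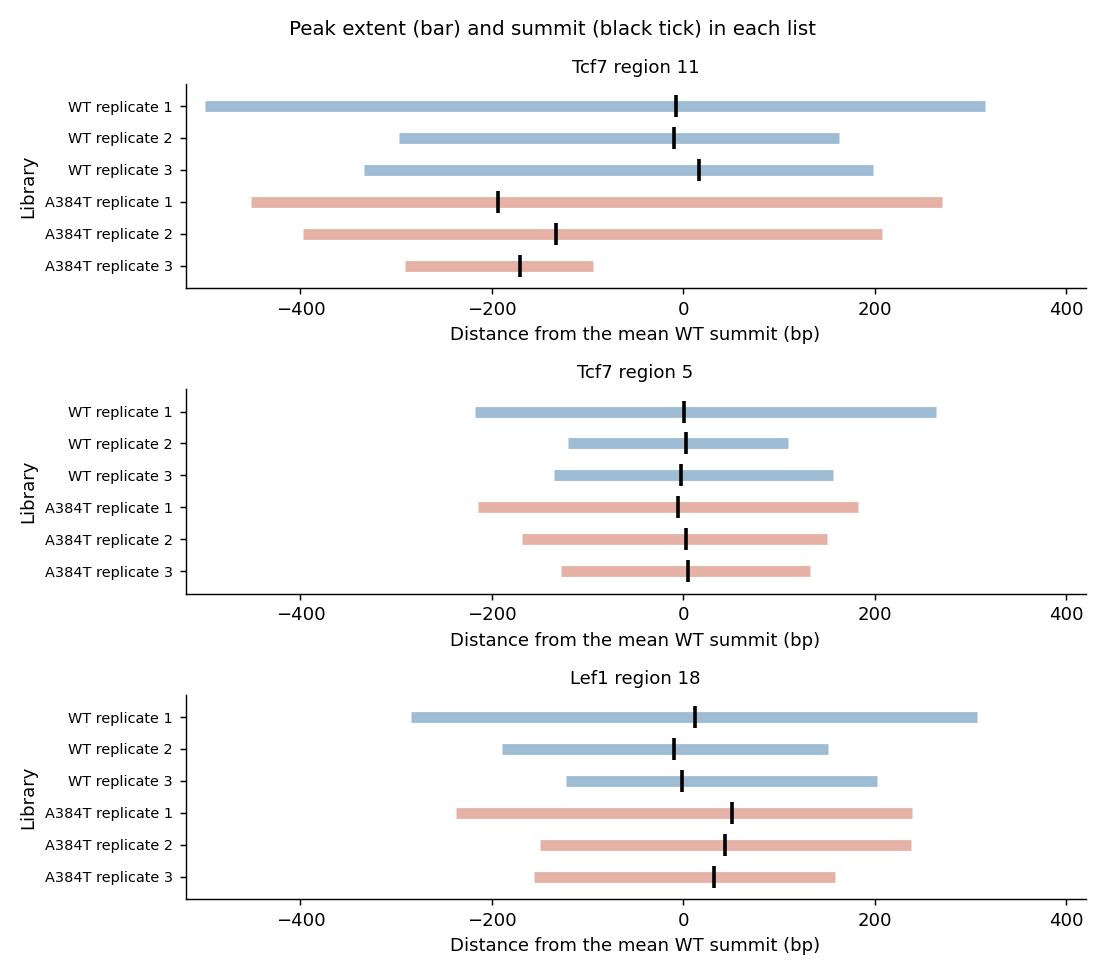
Extent of the peak (bar) and its summit (tick) in each list at Tcf7 region 11, Tcf7 region 5 and Lef1 region 18, in bp from the mean WT summit. At Tcf7 region 11 the A384T ticks lie left of the WT ticks, and at Tcf7 region 5 all 6 ticks fall within 10 bp.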

How the data were processed

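Peaks came from 6 ChIP libraries (3 WT, 3 A384T; groups and replicate numbers from the titles). Per the file headers, peaks were called on each library with MACS 2.1.0.20140616 against 1 control library at a q-value cutoff of 1e-10, with 1 tag kept per position and the larger set scaled to the smaller; Bowtie2, MACS2 and mm9 are named in the submitters' processing notes. The deposited lists give the pileup signal at the summit, -log10 p-value, fold enrichment (a ratio over local control) and -log10 q-value. Peaks of the standard chromosomes (1 to 19 and X, Y) were joined into regions by an overlap of at least 1 bp. Genotypes were compared by presence, by order within libraries and with exact permutation tests over 20 assignments. Code was tested on simulated lists. Python 3.11.15, numpy 2.4.6, pandas 2.3.3 and matplotlib 3.10.9 were used.

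Same-numbered libraries deviated together from their genotype means (r = 0.435, 0.123 and 0.374 over 962 regions for numbers 1, 2 and 3), so a replicate block was an alternative. Named regions were those in at least 5 libraries; regions in at least 2 libraries of one genotype alone would also have been named. Other regions are named with their values already known. Members, lists and rules were chosen with earlier results of these data known. The planned pathway genes were not analysed here.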

Additional observations from a re-analysis of the deposited data

How the results depend on the processing

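The Tcf7 peak count difference of -0.333 ranged from -2.5 to 2.0 with single libraries left out, and the Lef1 difference of -1.67 from -5.0 to 3.5; for Lef1 it was also 0.333 with -log10 q of at least 20 and 1.0 in the 49 bp libraries. Regions in both genotypes numbered 5 and 4 at equal list length and 6 and 8 in the 49 bp libraries (Tcf7 and Lef1), with ranges of 6 to 12 and 9 to 14 when single libraries were left out. The cause was not tested. Ranked by fold, Tcf7 region 5 turned to -0.693 and Lef1 region 18 to 4.42; Lef1 region 15 turned to 2.80 in the 49 bp libraries and ranged from -22.4 to 2.70 over libraries left out. Summit shifts with single libraries left out ranged from -25.2 to 10.3 bp at Tcf7 region 1, from -1.67 to 3.33 at Tcf7 region 5 and from -20.0 to 8.83 at Lef1 region 15. The replicate block leaves the values as they are (-0.333 and -1.67 peaks, both with exact p = 1.0) and cannot give a p under 0.25, so no p passed with or without it; calls by overlap take no account of it. The 49 bp setting and all summit comparisons were added after the data were seen. Over all results and alternatives, 141 values kept their direction or stayed within 1.5 times the count, 17 reversed and 6 moved further. The 141 include values that could not move. The replicate block returns the same difference, and a fold of at least 5 removed no peak of either window. A peak that missed the cutoff in a list is not counted there, and the part of depth in this was not tested.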

Other observations

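Pileup was also set against the leading peak of the same window and list, which needs no scale between libraries. At Lef1 region 24 it was 66.3, 37.1 and 45.3% of the region 18 peak in the WT libraries and 69.9, 62.1 and 78.8% in the A384T libraries (replicates in order). The lowest A384T value was below the highest WT value, so the groups overlapped, while within each replicate number A384T was higher. Such a ratio also moves with the leading peak. Ranked by pileup, Lef1 region 18 was itself called higher in WT (difference -6.01 points). The ratio therefore cannot tell a higher region 24 from a lower region 18. Pileup itself has no scale shared between libraries. At region 24 it was 177, 40.5 and 58 in WT and 151, 85.2 and 63 in A384T. At region 18 it was 267, 109 and 128 in WT and 216, 137 and 80 in A384T. At Tcf7 region 10 it was 37.6, 25.004 and 24.3% of the region 5 peak in WT and 13.4 and 19.6% in A384T replicates 1 and 2, with no peak in A384T replicate 3. At Tcf7 region 11 it was 83.8, 60.7 and 54.3% in WT and 68.5, 48.4 and 35.3% in A384T, which overlap, while within each replicate number A384T was lower. These ratios were chosen after the values were seen and were not tested, and no share over all regions was counted for them.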
